A study of Mus musculus with 23 samples.

Results

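The circadian clock genes described here were 10 genes chosen by name: Arntl, Npas2, Per1, Per2, Per3, Cry1, Nr1d1, Nr1d2, Dbp and Bhlhe40. All 10 were found among the 21878 genes of the sorted-neutrophil tables and among the 55335 genes of the whole-lung table. The rule that picked them used no measured value, although the members were chosen with earlier results of these data known. The study asked whether neutrophils take on a lung-specific state while they pass through the pulmonary circulation, and whether the mechanosensitive channel PIEZO1 takes part in it. mRNA was sequenced from 23 mouse samples in 9 groups. In the tissue experiment, neutrophils were sorted as CD45+CD11b+Ly6G+ cells from perfused lung, peripheral blood (PB) and bone marrow (BM) of WT mice, with 3 libraries per tissue. In the Piezo1 experiment, WT and Piezo1-cKO neutrophils were taken from lung and from PB, with 2 libraries per genotype and tissue. Piezo1-cKO mice carry floxed Piezo1 alleles and Vav1-iCre, which acts in all blood cells and not in neutrophils alone. The remaining 6 samples were whole lungs of WT mice, 3 depleted of neutrophils (PMN-depleted) and 3 controls. The study depleted neutrophils with an antibody against Ly6G, injected i.p. once or on consecutive days before analysis, with isotype antibody as control, and the schedule for the sequenced lungs is not given in the sources used here. The study's methods describe its mice as young adults of both sexes on a regular light/dark cycle, with most animal experiments started in the morning. The study also depleted neutrophils at an early age, and the age of the mice behind the sequenced whole lungs is not stated. The hour at which each library's tissue was taken is not given in the sources used here.

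The molecular clock is a transcriptional feedback loop. ARNTL (BMAL1) pairs with CLOCK or its relative NPAS2 and binds E-boxes to switch on the Per and Cry genes, whose proteins then accumulate and block that pair. REV-ERBα and REV-ERBβ, encoded by Nr1d1 and Nr1d2, form a second loop in which they repress Arntl through elements that they share with the ROR receptors, and DBP passes the rhythm on through D-boxes. BHLHE40 (DEC1) represses E-box genes and is also induced by hypoxia, growth factors and cytokines. Per1 has a further input outside the loop, since glucocorticoids and cAMP signalling induce it in many cells. In mouse peripheral tissues, including lung, Arntl, Npas2 and Cry1 transcripts peak from night to dawn, whereas Nr1d1, Nr1d2, Dbp and the Per genes peak from day to dusk.

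The promoter stretches of the members are shown first because the loop acts through the motifs in capitals. Of the 10 members, 8 had an entry among the RefSeq promoters of build GRCm38.p6, which span 250 bases before an annotated start and 50 bases from it. A total of 5 motifs were searched on both strands in all 32851 promoters. They were the E-box CACGTG (in 7.15% of all promoters), its variant CACGTT (4.68%), the D-box TTATGTAA (0.938%), the REV-ERB/ROR element TAGGTCA (2.61%) and the cAMP response element TGACGTCA (1.79%). At least 1 of them was found in 5 of the 8 members. The Per1 stretch (chr11:69098759-69098859, plus strand) has an E-box 166 bases before a start that lies 3841 bases inside the annotated gene, within an intron of a longer transcript. The Cry1 stretch (chr10:85185084-85185164, minus strand, intergenic) has an E-box 60 bases and the variant, read on the opposite strand, 79 bases before its start. The Per3 stretch (chr4:151044790-151044890, minus strand, within an intron of the neighbouring Camta1 gene) has D-boxes 205 and 158 bases before its start. The Nr1d1 stretch (chr11:98775378-98775447, minus strand, intergenic) has the variant on the opposite strand 28 bases before its start. Arntl has a REV-ERB/ROR element 30 bases after its second annotated start, in exon sequence that is not translated (chr7:113207530-113207559, plus strand). Each stretch is given 5′ to 3′ on the strand of its gene, with the motifs in capitals.
Per1: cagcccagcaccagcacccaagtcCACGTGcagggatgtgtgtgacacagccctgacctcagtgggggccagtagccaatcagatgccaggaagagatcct
Cry1: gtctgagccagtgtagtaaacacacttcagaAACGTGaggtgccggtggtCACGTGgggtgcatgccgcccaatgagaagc
Per3: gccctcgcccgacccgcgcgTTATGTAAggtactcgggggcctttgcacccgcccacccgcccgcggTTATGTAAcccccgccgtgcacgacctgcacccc
Nr1d1: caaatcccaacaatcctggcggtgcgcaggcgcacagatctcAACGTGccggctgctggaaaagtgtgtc
Arntl: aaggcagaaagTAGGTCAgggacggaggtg
No match was found in the entries of Npas2, Nr1d2 and Dbp, nor in those of the first start of Arntl and the second start of Per1. A match is a sequence, not a measured binding site.

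Levels are given as FPKM, the reads on a gene scaled by its length and by the library's total of reads on genes, so that levels of genes can be compared. Differences are given on the log2(FPKM + 1) scale, which understates the change of genes below a few FPKM. The 17 neutrophil libraries held 9621002 to 19330763 reads on genes, recovered as whole numbers from the FPKM values. A gene with 0 reads could therefore have had up to 3 reads, or 0.155 to 0.312 RPM, for counting error only. For whole lung the depth is unknown. All 7 neutrophil markers reached 1 FPKM in every sorted library. Piezo1 itself had 3 to 10 reads in each of the 8 libraries of the Piezo1 experiment, so its level does not check the genotype labels, and which exons the reads came from cannot be seen in gene totals. In whole lung the summed FPKM of the neutrophil markers was 197 to 255 in controls and 38.3 to 116 after depletion. Library 3 of WT PB stood apart from its replicates over all genes, with a chi-square per degree of freedom of 24.6 and 41.0 against them, where other replicate pairs gave 1.90 to 4.77. In the tissue experiment the study describes the replicates within a tissue as from separate mice. Whether lung, PB and BM neutrophils came from the same mice is not stated in the sources used here. The main fits treated these libraries as unpaired. For the Piezo1 experiment and whole lung, neither the labels nor the methods give the mouse library by library. The p-values measure the spread between these samples.

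In sorted neutrophils of every group, 6 of the 10 clock genes were at or near 0, and the other 4, Per1, Per2, Cry1 and Bhlhe40, were above 1 FPKM in all 17 libraries. Arntl, the partner of both CLOCK and NPAS2, lay between 0 and 0.328 FPKM, with 0 to 34 reads per library. Npas2 had 0 reads in 14 of the 17 libraries and at most 6 in the others. The activating arm of the loop was thus low in every sorted group, and Clock, named here for its role, reached no more than 0.53 FPKM. Nr1d1 had at most 3 reads in any library, and 0 in 8 of them. Nr1d2 did not exceed 0.523 FPKM, Per3 did not exceed 0.260 FPKM, and the output factor Dbp lay between 0.133 and 0.853 FPKM. Among these 6 genes the order of the groups rested on few reads, and most neighbouring groups overlapped. The highest group means were 0.208 FPKM for Arntl in PB and 0.183 FPKM for Per3 in BM neutrophils of the tissue experiment, and 0.682 FPKM for Dbp in WT PB neutrophils of the Piezo1 experiment. Over the 7 groups of neutrophils no neighbours in the order overlapped for Per1, which was highest in lung of the tissue experiment and lowest in Piezo1-cKO PB, nor for Cry1, which was highest in Piezo1-cKO PB and lowest in WT lung of the Piezo1 experiment. Separation of such small groups was common among all genes, as given below for pairs of groups, and was not counted over the 7 groups for other genes. In whole lung all 10 genes were above 1 FPKM in every library. Nr1d1 was at 7.24 to 43.8 FPKM there, Dbp at 3.04 to 18.0 FPKM and Arntl at 1.94 to 5.82 FPKM. Whole lung and sorted neutrophils came from separate experiments and were not tested against each other. In a bulk sample such as whole lung, fewer cells that express a gene and less RNA of it per cell cannot be told apart.

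**Figure D1:**
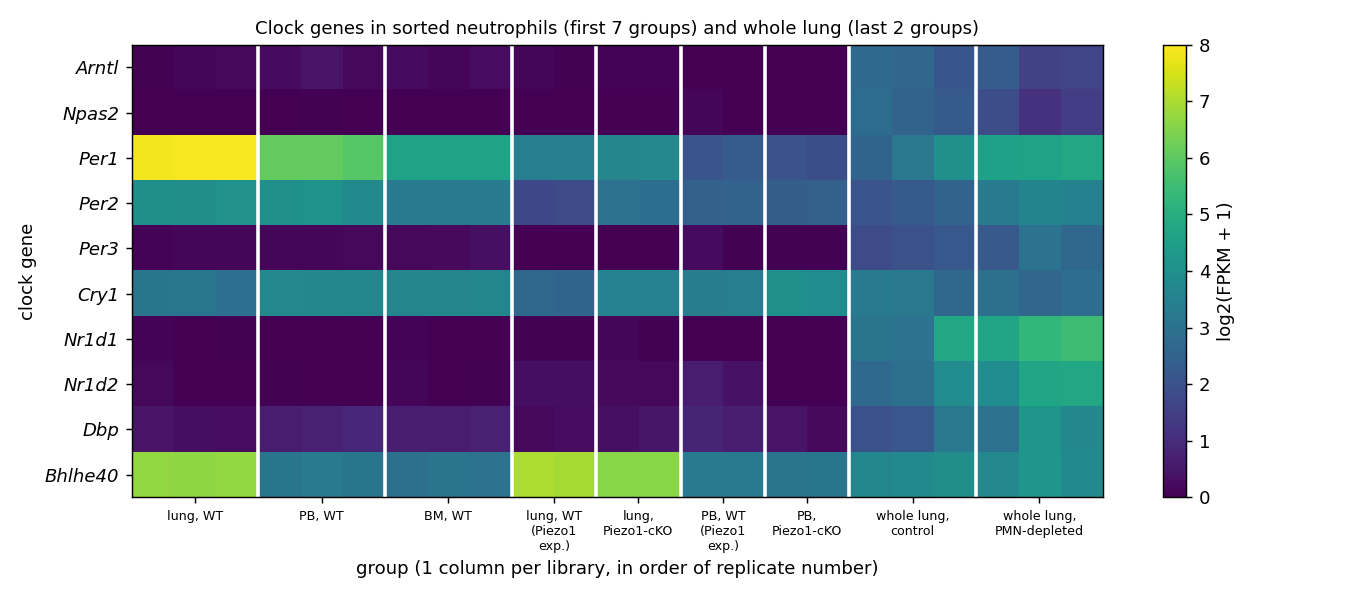
Level of each clock gene (rows) in each of the 23 libraries (columns, grouped and in order of replicate number), coloured by log2(FPKM + 1). In the 17 sorted-neutrophil libraries Per1, Per2, Cry1 and Bhlhe40 are coloured and the other 6 genes are near 0, whereas in whole lung all 10 genes are present.

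The tissue experiment asked how the clock genes differ between neutrophils of lung, PB and BM. Per1, a light- and hormone-responsive repressor of the loop, formed a steep gradient. In lung neutrophils it was at 233, 241 and 241 FPKM. In PB neutrophils it was at 66.6, 66.4 and 58.3 FPKM. In BM neutrophils it was at 23.8, 24.0 and 24.1 FPKM. The groups did not overlap in any pair of tissues, and the spread within each tissue was small beside the steps between them. Per1 was higher in lung than in PB by 1.89 ± 0.06 (log2, SE; adjusted p = 8.01e-08), higher in lung than in BM by 3.26 ± 0.03 (adjusted p = 3.78e-14) and higher in PB than in BM by 1.38 ± 0.06 (adjusted p = 4.63e-07). These and all later adjusted p-values are from limma over every gene tested, with 3 libraries per group here, and a gene was called where the adjusted p was below 0.05 and the difference exceeded 1 on the log2 scale.

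Bhlhe40 separated lung from both other tissues instead of forming a gradient. It was at 103, 99.4 and 102 FPKM in lung neutrophils. It was at 7.68, 8.53 and 7.65 FPKM in PB and at 6.73, 7.46 and 7.08 FPKM in BM neutrophils. Lung libraries lay far above all the rest, and the PB libraries lay just above the BM libraries. The difference was 3.52 ± 0.06 between lung and PB (adjusted p = 1.84e-09) and 3.66 ± 0.04 between lung and BM (adjusted p = 3.3e-13). Between PB and BM it was 0.15 ± 0.07 and did not pass the test (adjusted p = 0.101).

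Per2, the second period gene, was at 14.8, 14.5 and 15.6 FPKM in lung, at 15.2, 16.4 and 12.9 FPKM in PB and at 8.87, 8.32 and 8.62 FPKM in BM neutrophils. Lung and PB overlapped (difference 0.02 ± 0.09, adjusted p = 0.857), and both lay above BM. The difference from BM was 0.73 ± 0.05 for lung (adjusted p = 2.25e-07) and 0.71 ± 0.09 for PB (adjusted p = 0.000152), each below the threshold of 1 on the log2 scale. With libraries rescaled, and on recovered reads with edgeR and DESeq2, Per2 was higher in lung than in PB (0.60, 0.63 and 0.64, adjusted p = 0.000257, 3.28e-05 and 3.27e-10). Cry1, a direct inhibitor of the ARNTL pair, was lowest in lung. It was at 7.69, 7.79 and 6.59 FPKM in lung, against 12.6, 12.2 and 11.9 FPKM in PB and 11.6, 11.5 and 11.9 FPKM in BM. Lung libraries were below all PB and BM libraries, by 0.67 ± 0.08 and 0.60 ± 0.06 (adjusted p = 6.86e-05 and 8.12e-06), and these differences stayed below the threshold as well. The difference of Cry1 between lung and PB was lost with libraries rescaled (-0.10, adjusted p = 0.258) and on recovered reads (adjusted p = 0.297 with edgeR and 0.467 with DESeq2). PB and BM neutrophils did not pass the test for Cry1 (0.07 ± 0.06, adjusted p = 0.311).

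**Figure D2:**
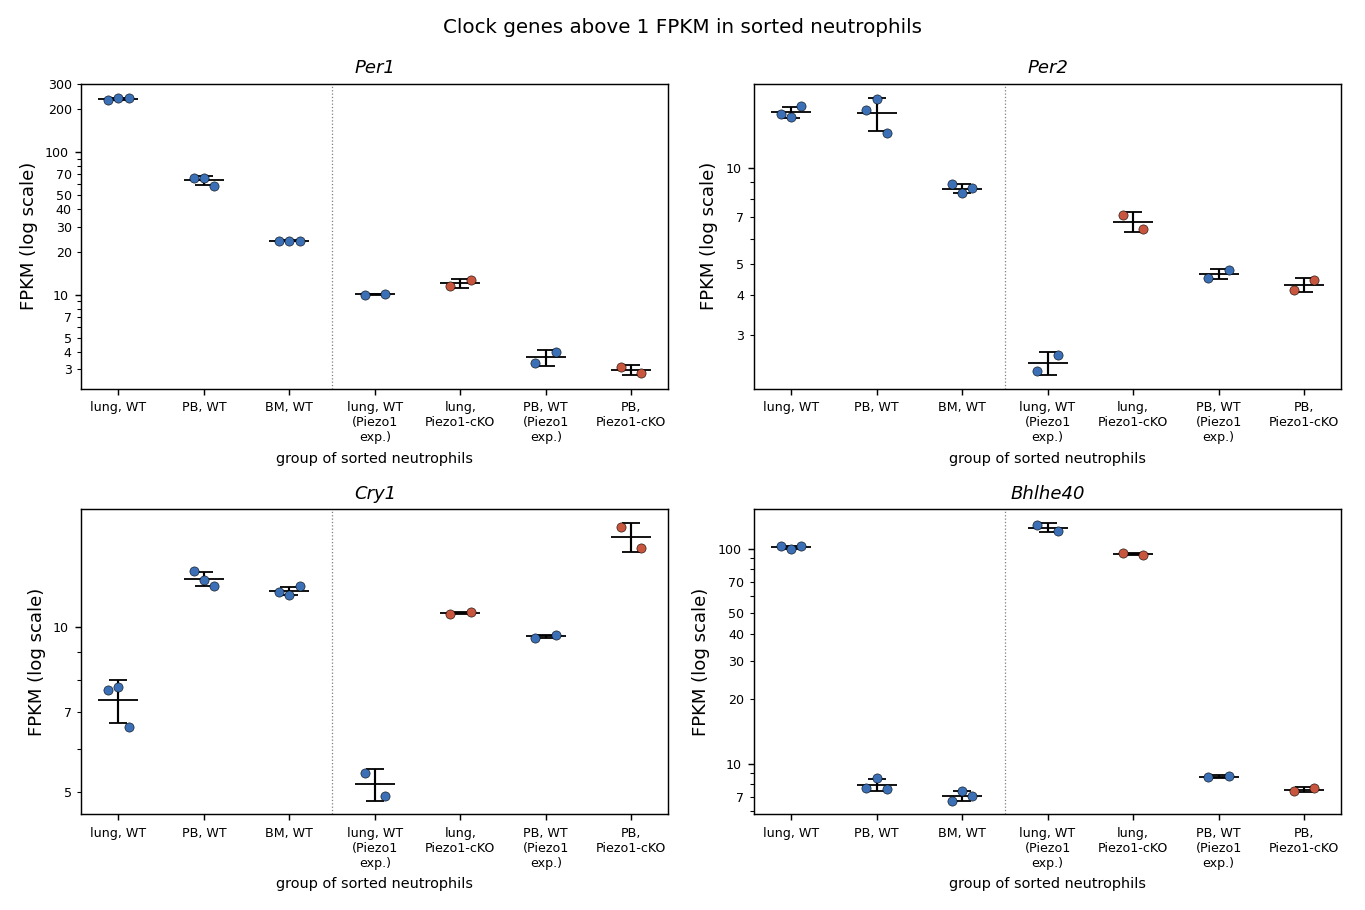
FPKM (log axis) of Per1, Per2, Cry1 and Bhlhe40 in the 7 groups of sorted neutrophils. Points are libraries (blue WT, red Piezo1-cKO), the wide bar is the mean and the whiskers are 1 SD, and the dotted line parts the tissue experiment (3 libraries per group) from the Piezo1 experiment (2 per group). Per1 falls from lung to PB to BM, and Bhlhe40 is at 93.7 FPKM or more in every lung library and at 8.77 FPKM or less in every other library.

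Of the 4 clock genes tested, 2 (Per1 and Bhlhe40) were called between lung and PB, both higher in lung. Among all 7577 genes tested, 27.2% were called and 7.75% were called higher. Between lung and BM the same 2 were called higher, beside 45.9% of all genes called and 9.86% called higher. Between PB and BM only Per1 was called, beside 22% called and 7.85% called higher. Groups without overlap were common: every lung library was above every PB library in 16.5% of all genes tested and below in 69.8%. Against BM these shares were 21.9% and 71% for lung, and 31.4% and 45.4% for PB. FPKM moved downwards overall in lung: the median difference of all genes tested was -0.54 against PB and -0.70 against BM, and -0.12 between PB and BM. Relative to that shift Cry1 differed little between lung and the other tissues. Rescaling each library by its median ratio, tried as an alternative, brought the overall median to -0.01 and 0.01 and moved the share of calls that were higher in lung from 28.5% to 66.6% against PB and from 21.5% to 57.5% against BM. Per1 and Bhlhe40 kept their calls under it, Per2 was then called between lung and BM (1.49) and Cry1 changed sign against BM (0.15).

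Other genes of the clock were taken from a list of 15 core genes and modifiers and 9 output genes. Between lung and PB, 7 of the 15 were tested and 1 was called higher, 1 lower. Ciart, a repressor of the ARNTL pair, was at 3.00, 3.00 and 2.47 FPKM in lung and at 0.565, 0.422 and 0.399 FPKM in PB, a difference of 1.39 ± 0.09 (adjusted p = 3.02e-06). Csnk1e, a kinase that marks PER proteins for degradation, was lower in lung by 1.19 on the log2 scale (-1.19 ± 0.06, adjusted p = 5.07e-07). None of 4 output genes tested was called there by limma. All 4 had an unadjusted p below 0.05, beside 86% of all genes. On the recovered reads of all genes edgeR called 5 of the output genes and DESeq2 4. Between lung and BM, Ciart was higher by 1.55 ± 0.08 (adjusted p = 2.48e-08), and Fbxw11, a subunit of the ubiquitin ligase that takes up PER proteins, was lower (-1.11 ± 0.04, adjusted p = 2.88e-09). Of the output genes, Nfil3, a repressor at D-boxes, and Usp2, a deubiquitinase, were called higher in lung than in BM (1.69 ± 0.04 and 1.12 ± 0.08, adjusted p = 3.75e-11 and 3.33e-07). No gene of either list was called between PB and BM by limma, with 6 and 4 tested. Of these, 3 and 4 had an unadjusted p below 0.05, beside 75.2% of all genes. On recovered reads edgeR called 1 and 3 there, and DESeq2 2 and 3. The share of all genes that edgeR or DESeq2 called was not counted. The lower values of Csnk1e and Fbxw11 in lung were not called by edgeR or DESeq2, whereas Ciart, Nfil3 and Usp2 were called by both against BM.

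Ciart carries more E-boxes near its start than any member with an entry, and its stretch (chr3:95882263-95882368, minus strand, within an intron of the neighbouring C920021L13Rik gene) is shown for that reason. The E-boxes lie 116, 58 and 44 bases before its start.
Ciart: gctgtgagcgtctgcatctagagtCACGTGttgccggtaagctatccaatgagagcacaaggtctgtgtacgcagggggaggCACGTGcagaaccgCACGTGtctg

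Glucocorticoid-induced genes were followed beside Per1 from a list of 5. Tsc22d3 (GILZ) and Sgk1, both classical targets of the glucocorticoid receptor, were called lower in lung than in PB (-1.86 ± 0.07 and -1.47 ± 0.06, adjusted p = 9.24e-08 and 1.28e-07), while Per1 was higher there. On recovered reads the call of Tsc22d3 held with edgeR and DESeq2 and that of Sgk1 did not. Against BM, Zbtb16 was called higher in both lung (1.07 ± 0.08, adjusted p = 3.56e-07) and PB (1.62 ± 0.09, adjusted p = 1.62e-06), and Tsc22d3 was higher in PB (2.10 ± 0.07, adjusted p = 6.52e-08). On recovered reads Tsc22d3 was called higher in lung than in BM as well (1.05 with edgeR and 1.08 with DESeq2).

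Of the markers of other cells, those of monocytes and macrophages summed to 124 to 127 FPKM in lung, 156 to 171 FPKM in PB and 59.2 to 63.4 FPKM in BM neutrophils. Most of this sum was Csf1r and Adgre1. C1qa and C1qb had another order, with means of 4.45 and 5.23 FPKM in BM, 0.635 and 0.76 FPKM in lung and 0.0174 and 0.0169 FPKM in PB. Marco was near 0 in all of them. The summed FPKM of 3 lung epithelial markers was 1.37 to 2.43 in lung neutrophils and 0 in PB and BM, and that of 2 endothelial markers was at most 0.447 in lung. Whole lung had 61900 to 96700 FPKM of the same epithelial markers. The part of these traces in the lung values was not tested.

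The Piezo1 experiment asked whether loss of Piezo1 changes neutrophils of lung and of PB. In lung neutrophils Per2 was the clock gene that passed both thresholds. It was at 2.30 and 2.59 FPKM in WT and at 7.10 and 6.43 FPKM in Piezo1-cKO. Both Piezo1-cKO libraries were thus above both WT libraries, as for 50.2% of all genes tested. The difference was 1.17 ± 0.09 (adjusted p = 0.000172). Cry1 moved the same way, from 5.42 and 4.93 FPKM in WT to 10.6 and 10.6 FPKM in Piezo1-cKO, a difference of 0.91 ± 0.08 that passed the test but not the threshold of 1 (adjusted p = 0.00019). Per1 was at 10.01 and 10.2 FPKM in WT and at 11.5 and 12.7 FPKM in Piezo1-cKO (0.23 ± 0.07, adjusted p = 0.0281). Bhlhe40 was at 129 and 121 FPKM in WT and lower, at 95.3 and 93.7 FPKM, in Piezo1-cKO (-0.40 ± 0.04, adjusted p = 0.000387). The difference of Per1 was lost with libraries rescaled (0.13, adjusted p = 0.162), with DESeq2 (adjusted p = 0.255) and without Piezo1-cKO lung library 2 (adjusted p = 0.158), among other settings. In this comparison 1 of the 4 was called, where 0.995% of all 6434 genes were called and 0.793% were called higher. The median difference of all genes was 0.09, and with libraries rescaled the share of calls that were higher in Piezo1-cKO moved from 79.7% to 65.4%.

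In PB neutrophils none of the 4 tested clock genes was called by limma, beside 3.65% of all 7256 genes. At an unadjusted p below 0.05 there were 2 of the 4, beside 56.9% of all genes. Cry1 was at 9.57 and 9.67 FPKM in WT and at 15.2 and 13.9 FPKM in Piezo1-cKO, a difference of 0.55 ± 0.07 (adjusted p = 0.00142). Per2 was at 4.53 and 4.78 FPKM in WT and at 4.15 and 4.45 FPKM in Piezo1-cKO (-0.09 ± 0.09, adjusted p = 0.41). Per1 (3.32 and 3.97 FPKM against 3.15 and 2.82 FPKM) and Bhlhe40 (8.63 and 8.77 FPKM against 7.45 and 7.69 FPKM) did not pass the test either (adjusted p = 0.131 and 0.0836). On the recovered reads, edgeR called 2 clock genes and DESeq2 called 1, all of them below the FPKM filter. The share of all genes that edgeR or DESeq2 called was not counted, so these counts have no background beside them. Nr1d2 had 32 and 21 reads in WT and 0 and 1 in Piezo1-cKO (edgeR adjusted p = 2.98e-07, DESeq2 adjusted p = 0.00363), and Dbp had 26 and 22 reads against 8 and 5 (edgeR adjusted p = 0.0035, DESeq2 adjusted p = 0.126). These are low counts in 2 libraries per group. The E-box gene Ciart fell in the same comparison, from 1.32 and 1.01 FPKM to 0 and 0.03 FPKM (-1.09 ± 0.11, adjusted p = 0.000587).

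The interaction term is the Piezo1-cKO minus WT difference in lung minus that in PB. All 4 tested genes had an adjusted p below 0.05 in it, as did 48.2% of all genes. Per2 had the only called value, 1.26 ± 0.12 (adjusted p = 0.00014), since it was higher in Piezo1-cKO in lung and not in PB. The term was 0.45 ± 0.13 for Per1, 0.36 ± 0.10 for Cry1 and -0.22 ± 0.07 for Bhlhe40 (adjusted p = 0.0195, 0.0166 and 0.0327). Each of these 3 was lost in some settings: Per1 with libraries rescaled (adjusted p = 0.0609), Cry1 with DESeq2 (adjusted p = 0.245) and Bhlhe40 without the FPKM filter (adjusted p = 0.0527). With 1 library left out the highest adjusted p was 0.0693 for Per1, 0.0548 for Cry1 and 0.127 for Bhlhe40, and 0.00117 for Per2. Of all 7560 genes tested 6.85% were called and 4.29% were called higher. Rescaling moved the share of calls above 0 from 62.5% to 52.3%. Ciart, with 3.50 and 3.40 FPKM in Piezo1-cKO lung neutrophils against 2.21 and 2.10 FPKM in WT, had a term of 1.59 ± 0.13 (adjusted p = 9.02e-05).

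Fkbp5, a glucocorticoid-induced co-chaperone of the glucocorticoid receptor, was called higher in Piezo1-cKO in both tissues (1.09 ± 0.07 in lung, 1.25 ± 0.06 in PB, adjusted p = 8.46e-05 and 7.06e-05). It was the only gene that limma called among 3 glucocorticoid genes tested in lung and 5 tested in PB, and in lung edgeR also called Klf9 (1.76). The erythroid markers Hbb-bs, Hba-a1 and Alas2 summed to 776 and 863 FPKM in Piezo1-cKO PB libraries and to 19.1 and 20 FPKM in WT PB libraries, where Alas2 was at 0. In lung they summed to 0.422 and 1.26 FPKM in Piezo1-cKO and to 4.33 and 4.4 FPKM in WT. The summed neutrophil markers were lower in Piezo1-cKO than in WT lung libraries (68400 and 72800 against 90000 and 93400 FPKM). The part of either marker list in the values of the clock genes was not tested.

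Lung and PB neutrophils of the Piezo1 experiment could be set against each other as well. In WT, Per1 was higher in lung by 1.26 ± 0.09 and Bhlhe40 by 3.70 ± 0.05 (adjusted p = 7.9e-06 and 2.35e-09), and these 2 of 4 were called beside 34% of all genes called and 7.5% called higher. In Piezo1-cKO, Per1 was higher in lung by 1.71 ± 0.09 and Bhlhe40 by 3.48 ± 0.06 (adjusted p = 6.09e-06 and 4.87e-08), beside 30.9% called and 7.93% called higher. The order of lung and PB for Per1 and Bhlhe40 was thus the same in WT of both experiments and in Piezo1-cKO. Per2 was lower in lung than in PB in WT (-0.71 ± 0.09, adjusted p = 0.000168) and higher in Piezo1-cKO (0.55 ± 0.09, adjusted p = 0.00105), which is the interaction above seen by tissue. The difference in WT was near the median of all genes (-0.62) and was lost with libraries rescaled (-0.15, adjusted p = 0.159), with edgeR (-0.21, adjusted p = 0.0689) and with DESeq2 (-0.20, adjusted p = 0.362). Cry1 was lower in lung in both genotypes (-0.78 ± 0.08 and -0.42 ± 0.07, adjusted p = 4.1e-05 and 0.00146), also near the median of all genes (-0.54 in Piezo1-cKO). In WT it was lost with libraries rescaled (-0.15, adjusted p = 0.128). With libraries rescaled, the share of calls that were higher in lung moved from 22.1% to 59.7% in WT and from 25.7% to 63.6% in Piezo1-cKO, where Cry1 changed sign (0.16) and Per2 was called (1.08). Usp2 was called higher in lung in both genotypes (1.40 ± 0.10 and 1.47 ± 0.11, adjusted p = 9.12e-06 and 3.11e-05), as was Ciart in Piezo1-cKO (2.14 ± 0.09, adjusted p = 2.27e-06). Fkbp5, Tsc22d3 and Sgk1 were called lower in lung in both genotypes by limma, Tsc22d3 by the most (-2.70 ± 0.03 in WT, adjusted p = 5.57e-10). On recovered reads Tsc22d3 kept its call in both genotypes with edgeR and DESeq2, and Fkbp5 in neither.

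**Figure D3:**
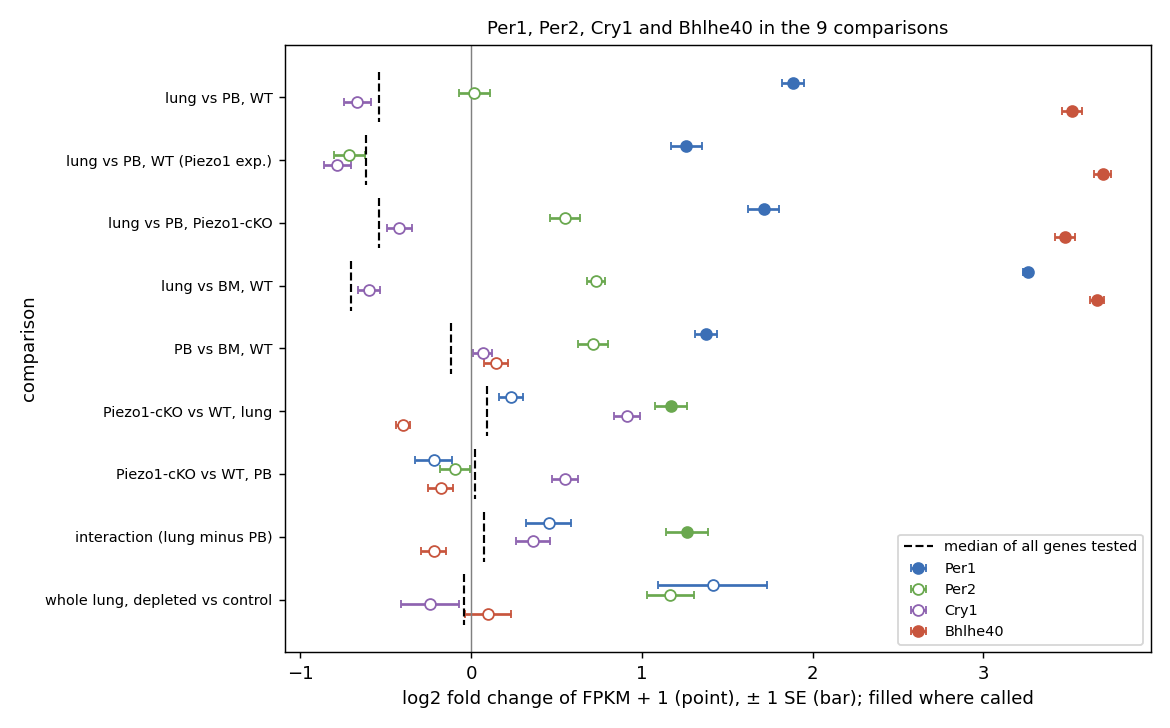
Log2 fold change of FPKM + 1 (x axis) of Per1, Per2, Cry1 and Bhlhe40 in each of the 9 comparisons (y axis), with bars of 1 SE. Filled points were called, and dashed lines mark the median of all genes tested. Per1 and Bhlhe40 lie to the right in every comparison of lung with another tissue, and Per2 is filled in the comparison of Piezo1-cKO with WT lung neutrophils and in the interaction.

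The level of Per1 differed more between the experiments than between the tissues. WT lung neutrophils had a mean of 238 FPKM (SD 4.69, n = 3) in the tissue experiment and 10.1 FPKM (n = 2) in the Piezo1 experiment, a ratio of 23.6. For WT PB neutrophils the means were 63.8 and 3.65 FPKM, a ratio of 17.5. In lung 14 of 7177 genes, Per1 included, had a log2 difference as large or larger, and in PB 47 of 7931. Per2 differed in the same direction (14.9 against 2.45 FPKM in lung, 14.8 against 4.65 FPKM in PB). Cry1 had a ratio of 1.42 in lung and 1.27 in PB, and Bhlhe40 a ratio of 0.812 and 0.914, while the median log2 difference of all genes was 0.20 and 0.10. Of the glucocorticoid-induced genes, Zbtb16 was higher in the tissue experiment (3.95 against 0.282 FPKM in lung), and Tsc22d3 was lower in it (391 against 882 FPKM in PB). No test was made across the experiments, whose libraries were separate sets.

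Whole lung after neutrophil depletion was described library by library. Night-to-dawn and day-to-dusk genes moved in opposite directions across these 6 libraries, and the libraries of 1 treatment differed among themselves as well. Arntl was at 5.82, 5.25 and 3.41 FPKM in controls 1 to 3 and at 3.90, 1.94 and 2.19 FPKM in PMN-depleted 1 to 3. Npas2 was at 6.04, 4.88 and 3.86 FPKM in controls and at 2.72, 1.21 and 1.71 FPKM after depletion. Cry1 was at 8.88, 8.14 and 5.47 FPKM in controls and at 6.73, 5.26 and 6.30 FPKM after depletion. These night-to-dawn genes were thus highest in controls 1 and 2, and only for Npas2 did the groups not overlap.

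The day-to-dusk genes had the mirror image. Nr1d1 was at 7.46, 7.24 and 26.1 FPKM in controls and at 25.5, 37.9 and 43.8 FPKM after depletion. Nr1d2 was at 5.72, 6.74 and 13.6 FPKM in controls and at 13.9, 25.9 and 26.2 FPKM after depletion. Dbp was at 3.04, 3.55 and 8.18 FPKM in controls and at 6.89, 18.0 and 12.4 FPKM after depletion. For all 3 genes control 3 was well above both other controls and lay beside PMN-depleted 1. Per1 was at 5.02, 7.92 and 15.1 FPKM in controls and at 22.7, 23.8 and 26.7 FPKM after depletion. Per2 was at 3.30, 3.76 and 4.89 FPKM in controls and at 8.88, 11.1 and 10.4 FPKM after depletion. Per3 was at 2.63, 2.94 and 3.59 FPKM in controls and at 3.71, 7.23 and 5.53 FPKM after depletion. The groups did not overlap for any of the Per genes, although for Per3 the closest libraries, control 3 and PMN-depleted 1, nearly met. Bhlhe40 changed little, with 11.7, 13.2 and 14.5 FPKM in controls and 12.7, 17.2 and 12.8 FPKM after depletion.

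Control 3 was the control farthest in the direction of the depleted mean for all 10 genes, highest of the controls for the 7 genes with a higher depleted mean and lowest for the other 3. PMN-depleted 1 was likewise the depleted library nearest the controls for all 10. For 5 genes (Nr1d1, Dbp, Bhlhe40, Arntl and Cry1) control 3 lay beyond PMN-depleted 1 in the direction of the depleted mean. These counts were made for the clock genes only, so the share of all genes with the same order is not known.

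**Figure D4:**
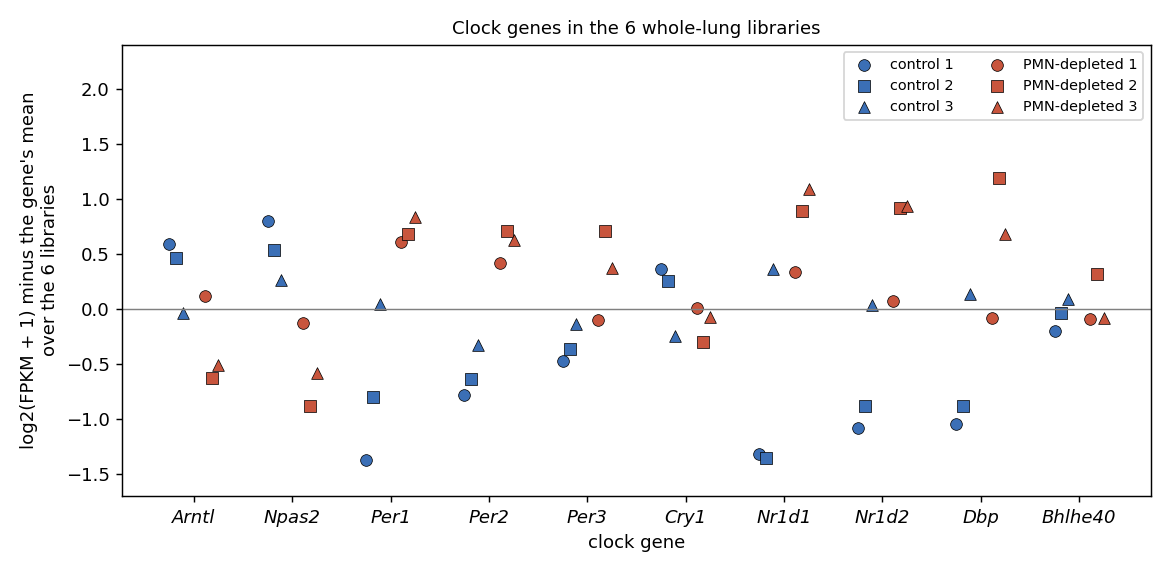
Each clock gene (x axis) in the 6 whole-lung libraries, as log2(FPKM + 1) minus the gene's mean over the 6 (y axis). Blue points are controls, red points PMN-depleted lungs, and the marker shape gives the replicate number. Control 3 (blue triangles) is the control farthest towards the depleted mean for all 10 genes.

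No clock gene was called between depleted and control lungs by limma, at the threshold of 0.5 on the log2 scale used for whole lung, and count tests were not run since whole reads were not recovered there. Of all 13990 genes tested, 1 was called (0.00715%). That gene was Aqp5, an alveolar water channel, named here because it was the only one. At an unadjusted p below 0.05 there were 8 of the 10 clock genes, beside 11.2% of all genes. The smallest adjusted p was that of Per2 (1.17 ± 0.14, adjusted p = 0.0711). The other day-to-dusk genes had differences of 1.41 ± 0.32 for Per1, 0.65 ± 0.20 for Per3, 1.54 ± 0.46 for Nr1d1, 1.28 ± 0.34 for Nr1d2 and 1.19 ± 0.40 for Dbp, with adjusted p from 0.196 to 0.341. Npas2 differed by -1.06 ± 0.22, Arntl by -0.68 ± 0.24 and Cry1 by -0.24 ± 0.17 (adjusted p = 0.175, 0.358 and 0.653), and Bhlhe40 by 0.10 ± 0.13 (adjusted p = 0.834). In 4 of the 10 genes every depleted library was above every control, beside 5.59% of all genes, and in 1 gene every depleted library was below, beside 11.8%. The median over the 10 genes was 0.91 and the median of all genes tested was -0.04. Since libraries 1 to 3 of a group differed this much, 1 library decided the size of several values: without control 3 the difference of Nr1d1 was 2.10 (adjusted p = 0.0657) and without control 1 that of Per1 was 1.08 (adjusted p = 0.25).

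Of the clock genes beyond the members none was called in whole lung by limma. Of the 15 core genes and modifiers 12 were tested, with a median difference of 0.09 and 3 at an unadjusted p below 0.05. All 9 output genes were tested, with a median of 0.30 and 5 at an unadjusted p below 0.05, beside 11.2% of all genes. The output genes Usp2 and Nfil3 differed by 0.51 ± 0.13 and -0.48 ± 0.14 (adjusted p = 0.242 and 0.275). The 5 glucocorticoid-induced genes had a median of 1.54, with none called by limma and 4 at an unadjusted p below 0.05. Zbtb16 was at 2.80, 1.98 and 5.52 FPKM in controls and at 15.9, 29.3 and 27.6 FPKM after depletion, and Fkbp5 at 2.13, 1.89 and 2.47 FPKM against 5.91, 11.02 and 13.5 FPKM. The groups did not overlap for these, and again control 3 was the highest control and PMN-depleted 1 the lowest depleted library. Tsc22d3 had the same order, at 23.4, 28.5 and 46.2 FPKM in controls and 63.6, 69.3 and 90.3 FPKM after depletion, whereas Sgk1 differed by 0.05 ± 0.08 (adjusted p = 0.873). The summed FPKM of T and B cell markers was 54.9 to 59.1 in controls and 22.1 to 47.3 after depletion, that of epithelial markers 61900 to 96700 and 82700 to 88800, and that of endothelial markers 347 to 477 and 322 to 389. Sorted neutrophils, the cells that the antibody targets, stayed below 1 FPKM for Arntl, Npas2, Nr1d1, Nr1d2, Per3 and Dbp, as given above. They held Per1 at 2.82 to 241 FPKM, Bhlhe40 at 6.73 to 129 FPKM, Per2 at 2.30 to 16.4 FPKM and Cry1 at 4.93 to 15.2 FPKM. The part of the hour of collection, of glucocorticoids and of cell composition in these values was not tested.

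A single value per library was formed from the members with textbook peak times, the mean log2(FPKM + 1) of the 3 night-to-dawn genes minus that of the 6 day-to-dusk genes. Bhlhe40 was left out of it. In whole lung it was 0.56, 0.20 and -1.06 in controls 1 to 3 and -1.24, -2.48 and -2.18 in PMN-depleted 1 to 3. Control 3 thus lay closer to PMN-depleted 1 than to either other control, although the groups did not overlap. In sorted neutrophils the value was -1.05 to -0.96 in lung, -0.51 to -0.45 in PB and -0.20 to -0.18 in BM of the tissue experiment. In the Piezo1 experiment it lay between -0.12 and 0.53. Without Per1 it was above 0 in all 17 neutrophil libraries, between 0.11 and 0.78. In PB of the Piezo1 experiment it was higher in Piezo1-cKO (0.53 and 0.53) than in WT (0.15 and 0.15), and without Per1 as well (0.78 and 0.76 against 0.36 and 0.42). In neutrophils 6 of the 9 genes in this value were near 0.

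**Figure D5:**
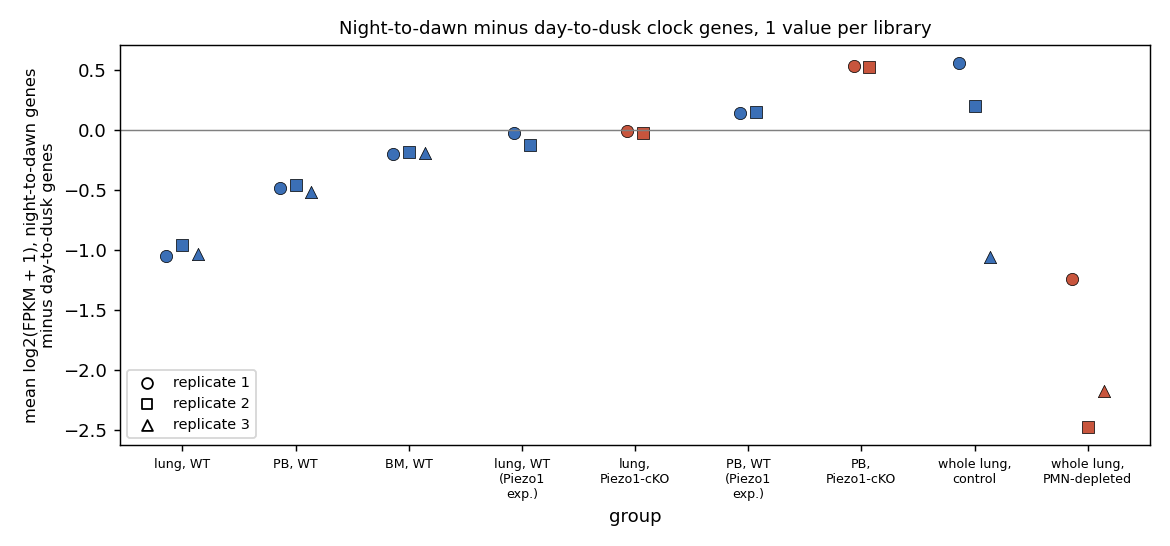
Mean log2(FPKM + 1) of Arntl, Npas2 and Cry1 minus that of Nr1d1, Nr1d2, Dbp, Per1, Per2 and Per3 (y axis) in each library, by group (x axis). Marker shape gives the replicate number, and red marks Piezo1-cKO or PMN-depleted. Whole-lung control 3, at -1.06, lies beside PMN-depleted 1 at -1.24 and below both other controls.

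Genes with the pattern most like that of a clock gene were found by the root mean square (RMS) difference of centred log2(FPKM + 1), for the 2 members with the widest range in each set of libraries. In whole lung these were Nr1d1 (range 2.44) and Dbp (range 2.23), over 6 libraries and 13990 genes. Nearest to Nr1d1 were Nr1d2, Per1, Klf15, Dbp and Fam46b, with RMS differences of 0.283 to 0.365, where a gene that did not vary would have 0.982. Nearest to Dbp were Nr1d2 (0.168), Cyp2a5, Gm45819, Fam46b and Gm44421 (up to 0.343, against 0.792). Members were thus 3 of the 5 nearest genes of Nr1d1 and 1 of the 5 nearest of Dbp. In the 9 libraries of the tissue experiment the widest ranges were those of Bhlhe40 (3.75) and Per1 (3.29), over 8414 genes. Nearest to Bhlhe40 were Cwc25, Rab20, Vegfa, Srrd and Txnrd1, Vegfa being a growth factor for endothelium, with RMS differences of 0.0825 to 0.161 against 1.69. Nearest to Per1 were Trem1 (an activating receptor of myeloid cells), Osm (a cytokine), Cebpb (a myeloid transcription factor), Lmnb1 and Slc2a6, with 0.0656 to 0.124 against 1.34, and no clock gene was among them.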

How the data were processed

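The authors trimmed reads with fastp, aligned them to mm10 with HISAT2 and counted them with HTSeq (per the labels and the study's methods, versions not given in the sources used here). They deposited FPKM values per gene for 23 libraries, and beside the Piezo1 tables a group mean of size-factor normalized reads (a signal column of the authors), used here to check the read recovery only. Fold changes and p-values of the authors' own comparisons were not used. The labels and the study's methods name different library kits.

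In sorted neutrophils FPKM values were whole multiples of the value of 1 read, and whole reads were recovered for 100% of values above 0 (within 0.05 of a read). Reads were chosen to fit whole numbers, so that share is not a separate check. From them the authors' group means in the Piezo1 experiment were rebuilt for 97.3% to 99.5% of genes above 0. In whole lung whole reads were not recovered. The same recovery showed that lung and PB tables of the Piezo1 experiment shared each gene's FPKM per read, so they were joined.

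Genes at 1 FPKM or more in at least 3 libraries (2 in the Piezo1 experiment) were tested on log2(FPKM + 1) with limma 3.58.1 (eBayes with trend and robust) and Benjamini-Hochberg adjustment over all genes tested, with only the groups compared in each fit. Alternatives were a pseudocount of 0.1, no filter, libraries rescaled by median ratio, a replicate block, the adjusted p alone, all libraries in 1 fit, each library left out, and edgeR (TMM, quasi-likelihood) and DESeq2 on the recovered reads. On simulated data 95% to 100% of 200 genes changed by 1.5 on the log2 scale were recovered, with 95% in whole lung. There 5.47% of the simulated calls were false. The changed genes were drawn at random, so these shares need not hold for genes as variable as the clock genes in whole lung. The members, lists and tests were chosen with earlier results of these data known. Named are the members, the listed clock and glucocorticoid genes called in at least 1 comparison, and the 5 genes nearest in pattern to 2 members per set of libraries. Clock, Aqp5 and marker genes were named in addition. Symbols stored as dates (27 genes) were restored by gene ID. Gene places and promoters are from RefSeq, GRCm38.p6, the build of mm10, and exon and intron places from GENCODE vM21.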

Additional observations from a re-analysis of the deposited data

Results flagged for a closer look

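For 4 genes the effect of Piezo1 loss differed between lung and PB neutrophils at an adjusted p below 0.05 in the interaction term of limma, given as the difference in lung minus that in PB on the log2 scale, with 2 libraries per genotype and tissue. Per2 had 1.26 (adjusted p = 0.00014), with both Piezo1-cKO libraries above both WT libraries in lung and both below both WT libraries in PB. Per1 had 0.45 (adjusted p = 0.0195), with the same directions. Cry1 had 0.36 (adjusted p = 0.0166) and was higher in both Piezo1-cKO libraries in each tissue. Bhlhe40 had -0.22 (adjusted p = 0.0327) and was lower in both Piezo1-cKO libraries in each tissue. With 2 libraries per group such separation was common among all genes tested. In lung 50.2% had both Piezo1-cKO libraries above both WT libraries and 26.4% below, and in PB 40.9% and 36.4%. Of all genes 48.2% had an adjusted p below 0.05 in this term, and 6.85% also passed the threshold of 1. Under the alternatives only Per2 kept an adjusted p below 0.05 throughout. Per1 had 0.0609 with libraries rescaled and up to 0.0693 with 1 library left out, Cry1 had 0.245 with DESeq2 and up to 0.0548 with 1 library left out, and Bhlhe40 had 0.0527 without the FPKM filter and up to 0.127 with 1 library left out. For single genes, groups of 2 or 3 libraries were too small for a test of a library that stands apart.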

How the results depend on the processing

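Calls of Per1 and Bhlhe40 between lung and PB or BM, of Per1 between PB and BM and of Per2 in Piezo1-cKO lung neutrophils and in the interaction held under every alternative run. With the adjusted p alone, 4 clock genes were called in each of lung against BM, Piezo1-cKO against WT in lung, the interaction and both comparisons of lung with PB in the Piezo1 experiment, 2 between PB and BM, and 1 (Cry1) for Piezo1-cKO in PB. Of all genes 92.6%, 50.7%, 48.2%, 89% (WT), 84.5% (Piezo1-cKO), 73.1% and 49.7% passed the adjusted p alone in these. With a pseudocount of 0.1 there were 2 in Piezo1-cKO lung neutrophils, Cry1 being added (1.02). On recovered reads, edgeR called 2 and DESeq2 1 for Piezo1-cKO in PB, edgeR 3 and DESeq2 2 in the interaction, and edgeR 3 (Per2 added) and DESeq2 4 (Per2 and Nr1d2 added) in lung against PB of Piezo1-cKO. The share of all genes called was not counted for edgeR or DESeq2. Both added Per2 in lung against BM (1.61 and 1.63), and edgeR added Dbp, lower in lung, in lung against PB of WT in the Piezo1 experiment (-1.25, adjusted p = 0.0228). Cry1 changed sign between lung and BM (0.15 rescaled, 0.15 with edgeR, 0.17 with DESeq2) and between lung and PB of Piezo1-cKO (0.16, 0.15 and 0.17), settings that remove the overall shift of FPKM. Per2 between lung and PB ranged from -0.073 (without PB library 3) to 0.090 (without PB library 2) with 1 library left out and was -0.012 without lung library 3, but 0.60 to 0.64 rescaled and on recovered reads, and Bhlhe40 in whole lung ranged from -0.040 (without PMN-depleted 2) to 0.17. Neither was called in any of these. Differences of Cry1 between lung and PB, of Per2 there in WT of the Piezo1 experiment, of Per1 in Piezo1-cKO lung neutrophils and of Per1, Cry1 and Bhlhe40 in the interaction lost an adjusted p below 0.05 in at least 1 setting. No clock gene was called in whole lung under any alternative run, with adjusted p of 0.0578 to 0.26 for Per2. The count tests on reads were not run there because whole reads were not recovered. Same-numbered libraries did not deviate together (correlations of -0.08 to 0.07). With 2 or 3 libraries per group this cannot decide whether the numbers pair the samples. With the replicate number as a block the number of called clock genes was 2 between lung and PB, 2 between lung and BM, 1 between PB and BM, 1 for Piezo1-cKO in lung, 0 in PB, 1 in the interaction, 2 in both lung against PB comparisons of the Piezo1 experiment and 0 in whole lung, as without it. Leaving out 1 library gave as many calls in each comparison as all libraries did.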
